A study of Drosophila melanogaster with 4 samples.

Results

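The JAK-STAT pathway was described here through 10 genes of adult Drosophila melanogaster intestinal stem cells: the cytokine genes os, upd2 and upd3, the receptor genes dome and et, the kinase gene hop, the transcription factor gene Stat92E, and the inhibitor genes Socs36E, Ptp61F and Su(var)2-10. They were taken by symbol from the 15495 rows of the deposited table, where upd1 is listed under its older symbol os, and all 10 had a row. Each library was made from cells sorted out of 100 pooled guts. In 2 Piwi RNAi libraries, RNA interference had been expressed against Piwi, an Argonaute protein that silences transposons. In 2 mCherry RNAi libraries it had been expressed against mCherry, a foreign fluorescent protein, and their labels also name a yw source. All 4 libraries came from flies held for 7 days at 29 °C. The driver of the RNA interference, the sorting marker, the sex and the age of the flies were not stated in the sources at hand. Each library is a pool, and p-values measure how pools of flies differ.

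JAK-STAT signalling starts when a secreted cytokine of the Unpaired family binds the receptor Domeless (dome). The Janus kinase Hopscotch (hop) then phosphorylates Stat92E, which enters the nucleus and turns on target genes, among them its own inhibitor Socs36E. In the fly gut the cytokines are made by enterocytes, progenitors and visceral muscle, rise on infection or damage, and drive stem cell division and the maturation of daughter cells.

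Expression was measured as FPKM, fragments relative to transcript length and library size, so levels can be set side by side between genes. The libraries held an estimated 1650000 to 2350000 fragments. The targeted gene piwi had 0.208 and 0.442 FPKM in Piwi RNAi replicates 1 and 2, against 0.495 and 1.94 FPKM in mCherry RNAi replicates 1 and 2. Its mean lay under 1 FPKM, so it was not tested, and the values 0.442 and 0.495 lie close together. How far piwi was lowered cannot be told from these low values. All 6 stem cell and enteroblast markers were detected in every library, and their summed level was 844 to 882 FPKM in Piwi RNAi and 584 to 721 FPKM in mCherry RNAi. With the libraries scaled by the median of ratios, which takes out a shift shared by most genes, the sums were 727 to 756 in Piwi RNAi and 728 to 770 in mCherry RNAi. Within that list klu and zfh2 had the largest log2 differences, 1.40 and 1.26 (limma adjusted p = 0.0594 and 0.0880). Dl and Sox100B had 0.09 and −0.11. Dl was the lowest of the 6 markers, at 4.49 and 3.55 FPKM in Piwi RNAi, against 3.41 and 3.98 FPKM in mCherry RNAi. After the scaling, 3 of the 6 markers were higher in both Piwi RNAi libraries and 2 were lower in both. Among all tested genes those shares were 25.7% and 27.3%. Markers of other gut cells differed between libraries. The 8 enteroendocrine markers summed to 260 and 480 FPKM in Piwi RNAi replicates 1 and 2, and to 2822 and 5588 FPKM in mCherry RNAi replicates 1 and 2. The 10 enterocyte markers summed to 1488 and 693 FPKM in Piwi RNAi, and to 14910 and 1248 FPKM in mCherry RNAi. The 8 visceral muscle markers summed to 4.62 and 4.38 FPKM in Piwi RNAi, and to 85.4 and 8.15 FPKM in mCherry RNAi. Of 6 hemocyte markers, both Piwi RNAi libraries listed 5 at 0, and mCherry RNAi replicates 1 and 2 listed 3 and 5 at 0. In such bulk samples, fewer cells of a type and less RNA per cell cannot be told apart.

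The intracellular genes of the pathway were detected in every library. The cytokine genes lay below Stat92E, dome and the 3 inhibitor genes in every library, but in mCherry RNAi upd2 and upd3 lay above hop. Stat92E had the highest level of the 10 genes in every library and os the lowest. Of the 10 genes, 9 had a mean of at least 1 FPKM and were tested, and 0 passed the limma test at an adjusted p of 0.05, where 1.18% of the 8313 tested genes did (0.613% higher and 0.565% lower in Piwi RNAi). At an unadjusted p under 0.05 the limma fit held 2 of the 9, hop and Su(var)2-10, both higher in Piwi RNAi, beside 26.6% of all tested genes in either direction and 21.7% in the higher one. On the deposited scale hop lay farthest apart, with a fold of group means of 2.80 and an adjusted p of 0.134. Under median of ratios scaling, quantile normalization and without Piwi RNAi replicate 1, upd2 did, with lower values in Piwi RNAi.

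**Figure D1:**
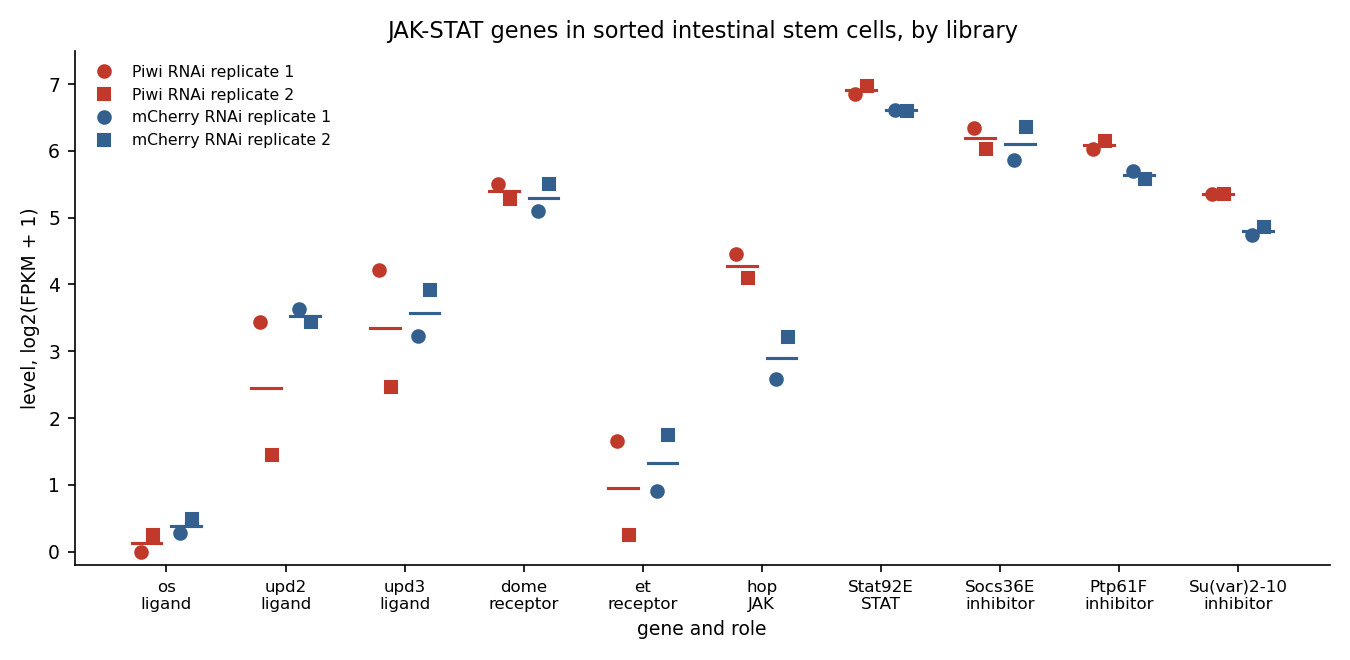
Level of each JAK-STAT gene as log2(FPKM + 1) on the vertical axis, with a point per library and a short line at each group's mean, Piwi RNAi in red left of mCherry RNAi in blue. Stat92E lies highest, the red points of hop lie above its blue ones, and upd2, upd3 and et are low in Piwi RNAi replicate 2.

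The cytokine genes upd2 and upd3 varied more between the Piwi RNAi libraries than between the groups. upd2, which encodes a stress-induced Unpaired cytokine, had 9.82 and 1.73 FPKM in Piwi RNAi replicates 1 and 2, against 11.4 and 9.81 FPKM in mCherry RNAi replicates 1 and 2. Piwi RNAi replicate 2 was low and the other Piwi RNAi library lay within the mCherry RNAi range, so the groups overlapped. On the log2(FPKM + 1) scale the difference, Piwi RNAi less mCherry RNAi, was −1.09 ± 0.69 (SE; adjusted p = 0.329), and it was −0.10 without Piwi RNAi replicate 2 and −2.08 without Piwi RNAi replicate 1. On the deposited scale the size of the upd2 difference therefore rests on Piwi RNAi replicate 2. With median of ratios scaling, upd2 was at 8.42 and 1.49 in Piwi RNAi, against 14.2 and 10.5 in mCherry RNAi, lower in both. The low value of Piwi RNAi replicate 2 corresponds to about 7 fragments, beside 30 in the other Piwi RNAi library and 44 and 38 in the mCherry RNAi libraries. Between Piwi RNAi replicates 2 and 1 the depth-adjusted ratio of fragments was 0.164 (95% interval 0.0609 to 0.382, exact Clopper-Pearson). That interval, like the others of this kind given here, covers counting error only.

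upd3, the cytokine gene best known for its induction in damaged guts, had the same order of libraries within the Piwi RNAi group. It had 17.6 and 4.54 FPKM in Piwi RNAi replicates 1 and 2, against 8.33 and 14.1 FPKM in mCherry RNAi replicates 1 and 2. The Piwi RNAi libraries held both the highest and the lowest value, so the groups overlapped fully. Its log2 difference was −0.23 ± 0.64 (SE; adjusted p = 0.818), with a 95% interval of −1.89 to 1.44, and it turned to 0.65 without Piwi RNAi replicate 2 and to 0.12 without mCherry RNAi replicate 2. The ratio of fragments between Piwi RNAi replicates 2 and 1 was 0.258 (interval 0.151 to 0.427). Among all tested genes, 2.49% had a larger gap between the Piwi RNAi libraries than upd2 on the log2 scale and 3.22% a larger gap than upd3, in either direction. Between the mCherry RNAi libraries those shares were 73.0% for upd2 and 27.1% for upd3. The enterocyte markers summed to less in Piwi RNAi replicate 2 than in replicate 1 as well. In mCherry RNAi replicates 1 and 2 they summed to 14910 and 1248 FPKM. There upd3 was higher in replicate 2, and upd2 had 11.4 and 9.81 FPKM. The part of these cells in the cytokine levels was not tested.

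The founding cytokine gene os (upd1) was close to the detection limit. It was listed at 0 and had 0.186 FPKM in Piwi RNAi replicates 1 and 2, against 0.208 and 0.409 FPKM in mCherry RNAi replicates 1 and 2. Both Piwi RNAi values were below both mCherry RNAi values, but they correspond to about 0 and 1 fragments against 1 and 2. The pooled ratio of Piwi RNAi to mCherry RNAi fragments was 0.352, with an interval of 0.00670 to 4.38, so a difference was not detectable at this depth. os lay under the filter on low values and was not tested in the main comparison.

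Of the receptor genes, dome was well expressed and its relative et was near the detection limit. dome, which encodes the signalling receptor, had 44.5 and 37.8 FPKM in Piwi RNAi replicates 1 and 2, against 33.3 and 44.4 FPKM in mCherry RNAi replicates 1 and 2. The Piwi RNAi values lay almost wholly within the mCherry RNAi range. For dome the log2 difference was 0.09 ± 0.24 (SE; adjusted p = 0.799), with a 95% interval of −0.52 to 0.71, so a change of up to 1.63-fold higher or to 0.695-fold cannot be told from none. With median of ratios scaling it was −0.32.

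et (eye transformer, also called latran) encodes a shorter relative of Domeless that lowers signalling. It had 2.15 and 0.193 FPKM in Piwi RNAi replicates 1 and 2, against 0.866 and 2.34 FPKM in mCherry RNAi replicates 1 and 2, or about 8 and 1 fragments against 4 and 11. The groups overlapped and Piwi RNAi replicate 2 held the lowest value, as it did for upd2 and upd3. For et the log2 difference was −0.36 ± 0.74 (SE; adjusted p = 0.747), and it was 0.34 without Piwi RNAi replicate 2 and 0.06 without mCherry RNAi replicate 2. In the BDGP6 annotation used here, et lies next to dome on chromosome X and its exons overlap those of Zw on the opposite strand. Zw had 17.6 and 8.30 FPKM in Piwi RNAi, against 8.81 and 8.45 FPKM in mCherry RNAi. Reads of the overlap cannot be told apart without the strand setting, so the et level is uncertain.

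hop, the only Janus kinase gene of the fly, had the largest difference of the 9 tested genes on the deposited scale. It had 20.9 and 16.2 FPKM in Piwi RNAi replicates 1 and 2, against 4.99 and 8.26 FPKM in mCherry RNAi replicates 1 and 2. Both Piwi RNAi values were well above both mCherry RNAi values. The group means were 18.5 ± 3.35 FPKM in Piwi RNAi and 6.62 ± 2.31 FPKM in mCherry RNAi (SD, n = 2 each). The log2 difference was 1.38 ± 0.32 (SE; limma unadjusted p = 0.00825, adjusted p = 0.134), with a 95% interval of 0.55 to 2.21, so hop did not pass over all genes. A larger positive difference was seen in 3.09% of the tested genes. With each library left out the difference ran from 1.07 to 1.69, and over 13 alternatives the adjusted p ran from 0.0942 to 0.547. These libraries held about 169 and 186 hop fragments in Piwi RNAi and 51 and 86 in mCherry RNAi. Counting error alone gives the pooled ratio of 2.74 an interval of 2.24 to 3.36.

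The deposited values carried a shift across genes, against which these differences were read. Over all tested genes the log2 difference had a median of 0.37, while that of the 9 tested pathway genes was 0.09. Relative to the median of all genes hop stood at 1.02, Stat92E at −0.06 and Socs36E at −0.29. Of the 9 genes, 4 had both Piwi RNAi values above both mCherry RNAi values (hop, Stat92E, Ptp61F and Su(var)2-10) and 0 were lower in both. Among all tested genes 51.5% were higher in both and 13.0% lower in both, so the share of the pathway genes is near that of all genes. With median of ratios scaling, hop and Su(var)2-10 remained higher in both, beside 25.7% of all tested genes. upd2, dome and Socs36E were then lower in both, beside 27.3%. The scaled hop difference was 1.00 (adjusted p = 0.199), and that of upd2 was −1.45. Quantile normalization gave 1.03 for hop and −1.30 for upd2.

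**Figure D2:**
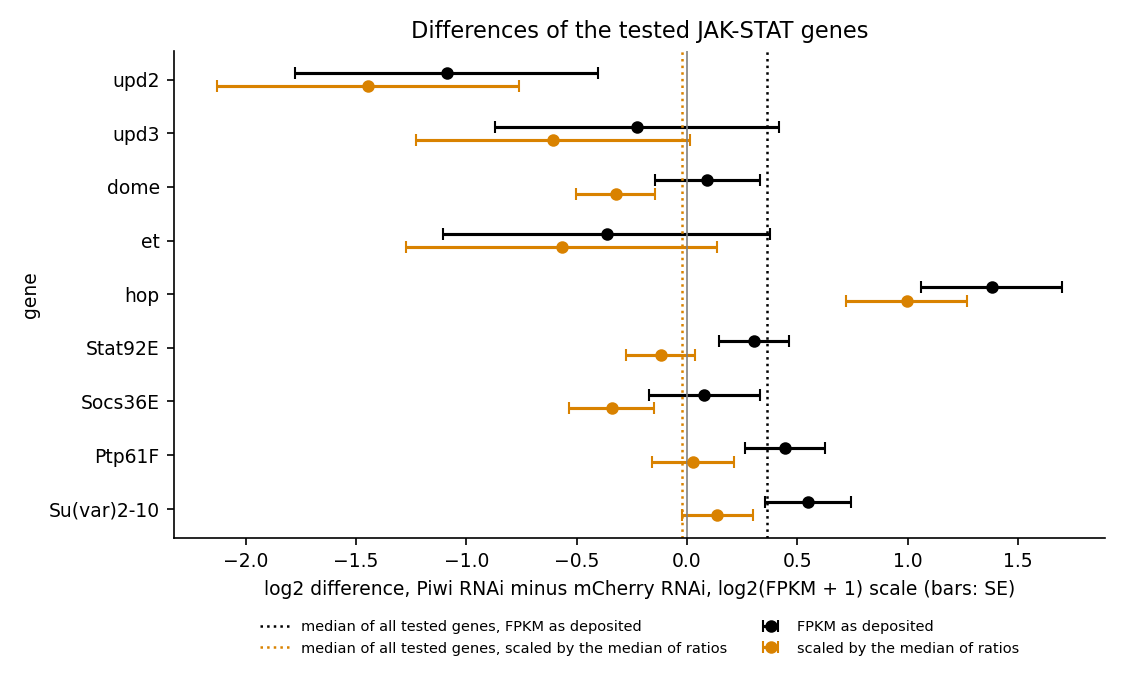
Log2 difference of each tested JAK-STAT gene, Piwi RNAi minus mCherry RNAi, with bars of 1 SE, in black for FPKM as deposited and in orange with median of ratios scaling, and dotted lines at the median of all tested genes under each. hop lies above both medians at 1.38 and 1.00, while dome, Stat92E and Socs36E change sign with the scaling.

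Stat92E, the only STAT transcription factor of the fly, was among the more abundant transcripts. It had 114 and 125 FPKM in Piwi RNAi replicates 1 and 2, against 97.1 and 96.1 FPKM in the mCherry RNAi libraries, and lay above 90.3% to 91.7% of the tested genes in each library. Both Piwi RNAi values were higher, by a fold of group means of 1.24. The log2 difference was 0.30 ± 0.16 (SE; adjusted p = 0.266), and 54.3% of the tested genes had a larger one. After median of ratios scaling it was −0.12, so its direction depends on the scaling.

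The inhibitors Ptp61F and Su(var)2-10 had higher values in Piwi RNAi and the feedback inhibitor Socs36E had overlapping ones. Ptp61F, a tyrosine phosphatase that acts on Hop and Stat92E, had 64.1 and 70.0 FPKM in Piwi RNAi, against 50.8 and 47.0 FPKM in mCherry RNAi. Its log2 difference was 0.45 ± 0.18 (SE; adjusted p = 0.199), and it was 0.03 after median of ratios scaling. In the BDGP6 annotation the gene spans several others, of which CG9166 lies on the opposite strand with no shared exon and had 19.0 and 20.3 FPKM in Piwi RNAi, against 7.17 and 10.9 FPKM in mCherry RNAi.

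Su(var)2-10, the fly PIAS protein, is a SUMO ligase that restrains Stat92E and is also known to act downstream of Piwi in the silencing of transposons in the ovary. It had 39.8 and 40.0 FPKM in Piwi RNAi replicates 1 and 2, against 25.8 and 28.1 FPKM in mCherry RNAi replicates 1 and 2. The replicates lay close together and the groups did not overlap, with means of 39.9 ± 0.146 FPKM in Piwi RNAi and 27.0 ± 1.59 FPKM in mCherry RNAi (SD, n = 2 each). A log2 difference of 0.55 ± 0.19 resulted (SE; limma unadjusted p = 0.0377, adjusted p = 0.175), and 0.19 of it lay above the median of all genes. A larger difference was seen in 36.0% of the tested genes, and after median of ratios scaling it was 0.14 (adjusted p = 0.656).

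Socs36E, a suppressor of cytokine signalling and a widely used readout of the pathway, had 80.5 and 64.4 FPKM in Piwi RNAi replicates 1 and 2, against 57.4 and 80.7 FPKM in mCherry RNAi replicates 1 and 2. The groups spanned nearly the same range. The log2 difference was 0.08 ± 0.25 (SE; adjusted p = 0.835). Its 95% interval ran from 0.675-fold to 1.65-fold on the FPKM + 1 scale, so changes within those bounds cannot be told from none. It was −0.34 after median of ratios scaling, −0.12 after quantile normalization, −0.08 without Piwi RNAi replicate 1 and −0.16 without mCherry RNAi replicate 1.

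Ratios between genes within a library do not depend on how the libraries were scaled to each other. Of the 11 ratios computed, 7 did not overlap between the groups, the 4 with hop on top and 3 others. Those 4 share the hop values and so repeat the hop difference. The share of all gene pairs whose ratios lie apart was not computed, so no result about these genes is drawn from the count. The ratio of hop to Stat92E was 0.183 and 0.129 in Piwi RNAi replicates 1 and 2, against 0.0514 and 0.0860 in mCherry RNAi replicates 1 and 2. The ratio of hop to dome was 0.469 and 0.427 in Piwi RNAi, against 0.150 and 0.186 in mCherry RNAi. Both ratios were higher in both Piwi RNAi libraries. hop also lay above upd2 and upd3 in both Piwi RNAi libraries and below both in both mCherry RNAi libraries. Its ratio to upd3 was 1.19 and 3.56 in Piwi RNAi, against 0.599 and 0.586 in mCherry RNAi.

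The 3 other ratios that lay apart were also higher in both Piwi RNAi libraries. Su(var)2-10 to Stat92E was 0.349 and 0.321 in Piwi RNAi, against 0.266 and 0.292 in mCherry RNAi. Ptp61F to Stat92E was 0.561 and 0.560 in Piwi RNAi, against 0.523 and 0.489 in mCherry RNAi. upd3 to upd2 was 1.79 and 2.62 in Piwi RNAi, against 0.733 and 1.44 in mCherry RNAi. In Piwi RNAi replicates 1 and 2 it rests on about 60 and 22 upd3 fragments over 30 and 7 upd2 fragments. In mCherry RNAi replicates 1 and 2 these were 36 and 62 over 44 and 38. No interval was computed for this ratio, so whether 1.79 and 1.44 differ beyond counting error is not known.

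The ratio of Socs36E to dome, both known to respond to Stat92E in other fly tissues, moved little between libraries. It was 1.81 and 1.70 in Piwi RNAi replicates 1 and 2, against 1.73 and 1.82 in mCherry RNAi replicates 1 and 2. The ratio of Socs36E to Stat92E was 0.705 and 0.516 in Piwi RNAi, against 0.592 and 0.840 in mCherry RNAi, and it overlapped between the groups. With 2 libraries against 2, an exact two-sided permutation test cannot give a p below 0.333 for any of these ratios. These ratios were chosen after the values were seen.

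**Figure D3:**
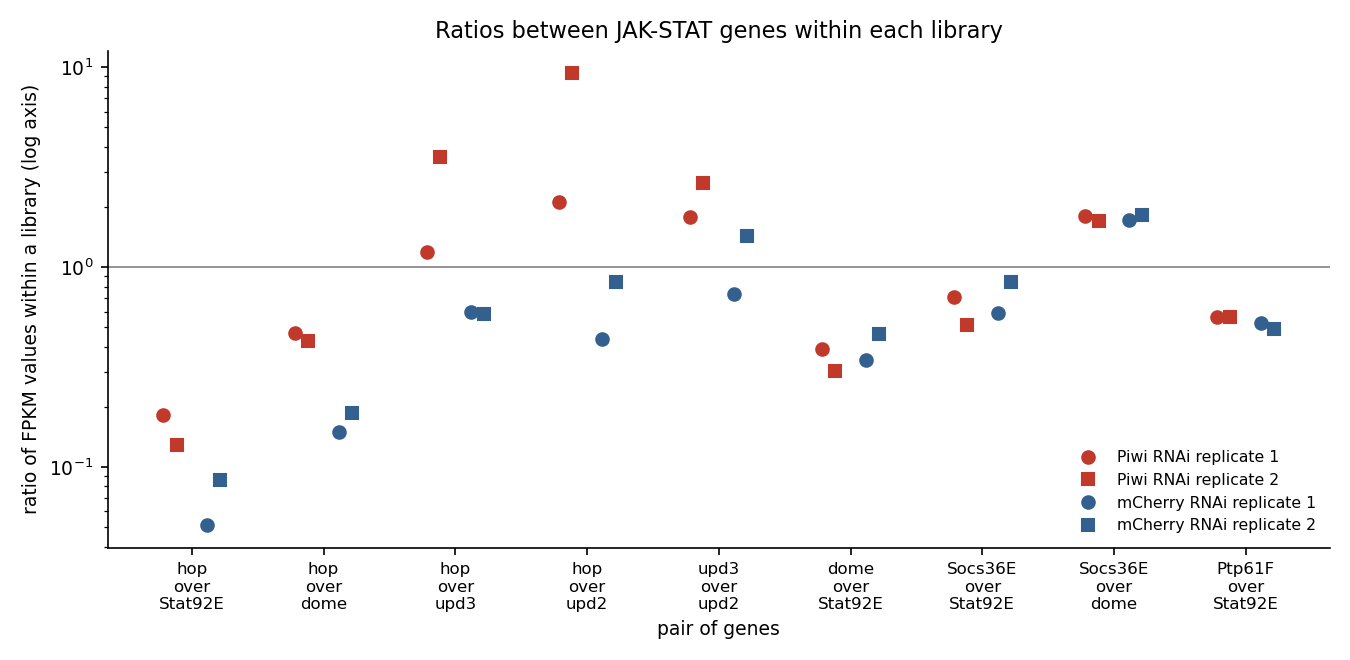
Ratio of the FPKM values of gene pairs within each library on a log axis, with a point per library, Piwi RNAi in red left of mCherry RNAi in blue. The ratios with hop on top are higher in both Piwi RNAi libraries, and the ratio of Socs36E to dome lies between 1.70 and 1.82 in the 4 libraries.

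By group means, the order of levels in Piwi RNAi was Stat92E, Socs36E, Ptp61F, dome, Su(var)2-10, hop, upd3, upd2, et and os. The libraries of neighbours overlapped for Socs36E and Ptp61F, for dome and Su(var)2-10, for hop and upd3, for upd3 and upd2, and for upd2 and et, so the order within those pairs is not beyond the spread. In mCherry RNAi the order was Stat92E, Socs36E, Ptp61F, dome, Su(var)2-10, upd3, upd2, hop, et and os. There only upd3 and upd2 overlapped among neighbours. hop thus ranked sixth in Piwi RNAi and eighth in mCherry RNAi.

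Other known regulators of the pathway were read from a list of 14 genes, of which 13 were tested and Diedel was listed at 0 in every library. Of the 13, 0 passed the limma test in either direction, where 1.18% of all tested genes did. At an unadjusted p under 0.05 there were 3, beside 26.6% of all tested genes. Their median log2 difference was 0.19, against 0.37 for all tested genes. Of the 13, 6 were higher in both Piwi RNAi libraries and 1 lower in both, beside 51.5% and 13.0% of all tested genes. With median of ratios scaling 2 were higher and 3 lower in both, beside 25.7% and 27.3%. dally, a glypican that helps spread Unpaired cytokines outside the cell, had 25.5 and 18.5 FPKM in Piwi RNAi, against 8.57 and 12.9 FPKM in mCherry RNAi (log2 difference 0.98 ± 0.31; adjusted p = 0.160). E(bx), the large subunit of the NURF chromatin remodeller, had 25.4 and 20.3 FPKM in Piwi RNAi, against 9.53 and 14.3 FPKM in mCherry RNAi (log2 difference 0.90 ± 0.29; adjusted p = 0.162). Both genes kept these non-overlapping groups after median of ratios scaling, with differences of 0.58 and 0.50.

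wdp (windpipe), a leucine-rich repeat protein that lowers JAK-STAT signalling in the gut, was the regulator with values lower in both Piwi RNAi libraries. It had 115 and 101 FPKM in Piwi RNAi replicates 1 and 2, against 147 and 154 FPKM in mCherry RNAi replicates 1 and 2. The log2 difference was −0.48 ± 0.16 (SE; adjusted p = 0.168), and after median of ratios scaling it was −0.90 (adjusted p = 0.0949). Of the other Socs genes, Socs16D had a log2 difference of 0.24 and Socs44A one of −0.12, which is −0.48 relative to the median of all genes. With median of ratios scaling Socs44A was at 24.5 and 19.1 in Piwi RNAi, against 33.6 and 29.8 in mCherry RNAi, lower in both. The repressor gene ken, whose product competes with Stat92E for its sites, stood at 0.01. Adjusted p-values of these 3 ran from 0.496 to 0.987.

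Of 14 genes known to respond to the pathway in other tissues or in infected flies, 4 were tested, and 0 passed the limma test, with 0 at an unadjusted p under 0.05. Over all tested genes those shares were 1.18% and 26.6%, so a count of 0 in 4 says little about these genes. Another 6 were listed at 0 in every library, among them chinmo, a target in the testis stem cells, and TotB, TotC, TotX and TotZ, stress-induced humoral factors. Mmp1, a matrix metalloproteinase, had 157 and 90.7 FPKM in Piwi RNAi replicates 1 and 2, against 68.8 and 104 FPKM in mCherry RNAi replicates 1 and 2 (log2 difference 0.49 ± 0.35; adjusted p = 0.372). Its groups overlapped.

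vir-1, a gene induced by viral infection through Hop, had 6.61 and 0.479 FPKM in Piwi RNAi replicates 1 and 2, against 24.0 and 0.630 FPKM in mCherry RNAi replicates 1 and 2. Its spread within each group exceeded the difference between groups (log2 difference −0.93 ± 1.51; adjusted p = 0.682). nub, the POU factor Pdm1 of enterocytes, had 1.17 and 0.552 FPKM in Piwi RNAi, against 4.95 and 0.911 FPKM in mCherry RNAi (log2 difference −0.88 ± 0.73; adjusted p = 0.432). Both were highest in mCherry RNAi replicate 1 and lowest in Piwi RNAi replicate 2, as were the summed enterocyte markers, a list that also holds nub. The part of enterocyte RNA in these values was not tested. Without mCherry RNAi replicate 1 the difference of nub was −0.06 and that of vir-1 1.04, and without Piwi RNAi replicate 2 that of vir-1 was 0.25.

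**Figure D4:**
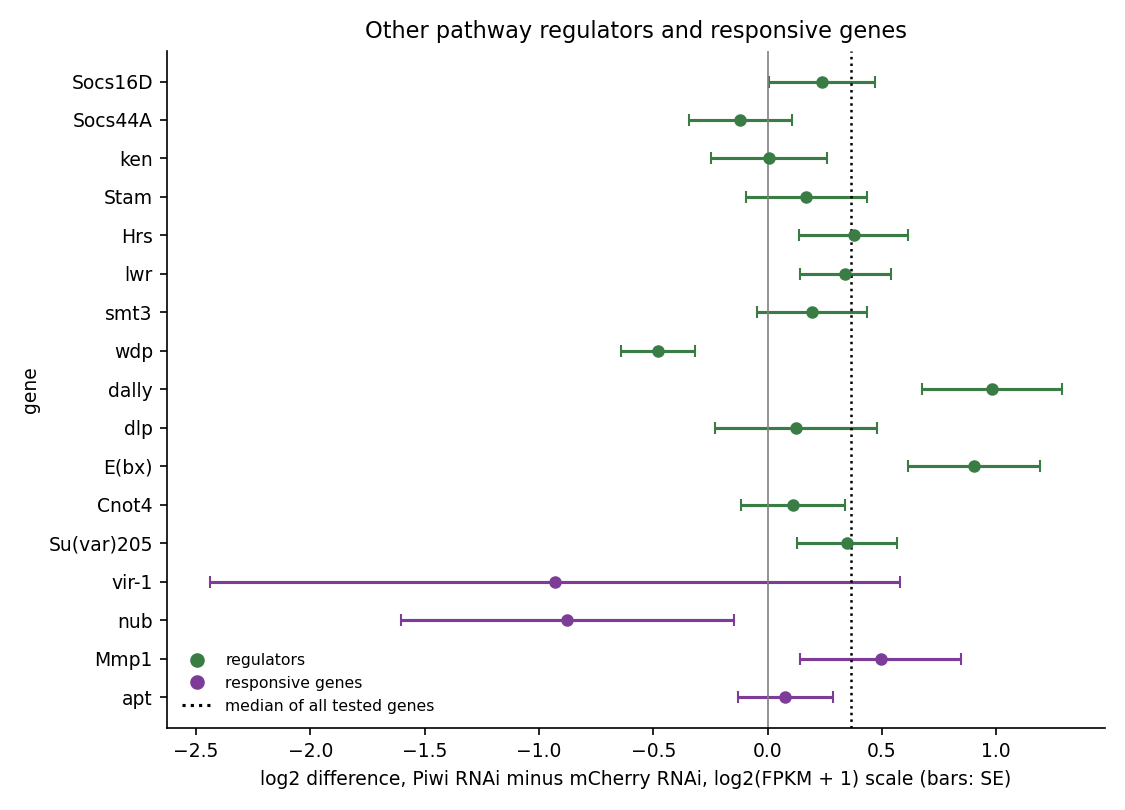
Log2 difference, Piwi RNAi minus mCherry RNAi, with bars of 1 SE, of the 13 tested regulators in green and the 4 tested responsive genes in purple, and a dotted line at the median of all tested genes. dally and E(bx) lie highest, wdp is the regulator farthest below 0, and vir-1 has the widest error.

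Genes whose centred log2 values over the 4 libraries lay nearest to those of Stat92E were amx, ClC-c and sar1, at Euclidean distances of 0.0228, 0.0321 and 0.0414 on the log2 scale. Nearest to Socs36E were FANCI, AnnX and Past1, at 0.0308, 0.0352 and 0.0383. These are the closest of all tested genes with a name, over 4 libraries only, and are given as a description.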

How the data were processed

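Trizol was used for RNA extraction and a TruSeq RNA kit for the libraries, per the labels' protocols. The authors deposited 1 table of FPKM values with a column per library, made with TopHat and Cufflinks per the submitters' processing notes. Their versions, the build, annotation, strand setting and any scaling of libraries were not stated there. Of 15495 rows, 14845 carried an identifier of the name table used here and 4508 were listed at 0 in every library.

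The main comparison was a limma-trend fit (limma 3.58.1, R 4.3.3) on log2(FPKM + 1), with two-sided p-values, over the 8313 genes that averaged 1 FPKM or more, with Benjamini-Hochberg adjustment over all of them and a threshold of 0.05. It had 2 residual and 2.86 prior degrees of freedom, and 95% intervals of log2 differences are unadjusted. The fit was tested on simulated data. Log2 differences on this scale understate the change of low genes. FPKM is not a count, and no count test was run. Depth was estimated from low values of genes with 1 annotated transcript (800 nt or longer, less 150 nt), where the tallest peak was taken as 1 fragment. Of these values, 85.0% to 88.0% came out whole within 0.1 fragments, and 20% would by chance. Fragment numbers of single genes use the median annotated transcript length (BDGP6 annotation, Ensembl). Fragments may hold PCR duplicates. Ptp61F was matched to the annotation by symbol.

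The pathway genes and all lists were chosen with earlier results of these data known. Named genes were the 10 pathway genes, piwi, the 3 regulators and the 3 responsive genes with the smallest p, and the nearest profiles of Stat92E and Socs36E. Other regulators and neighbours were named after their values were seen. Alternatives were pseudocounts of 0.1 and 5, no filter or a mean from 5 FPKM up, quantile normalization, median of ratios scaling, no trend, a robust fit, a replicate block and each library left out.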

Additional observations from a re-analysis of the deposited data

How the results depend on the processing

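No pathway gene, regulator or responsive gene passed an adjusted p of 0.05 in any of the 13 alternatives that tested it. The lowest adjusted p was 0.0942, for hop in a robust fit. os was tested only with no filter on the mean (limma adjusted p = 0.475), and et in 12 alternatives. The largest count over all genes was 209 of 8313, in the robust fit. Counts of 0 in lists this short were therefore likely beforehand and do not show that the results are stable. The count over all genes varied between alternatives. It was 98, or 51 higher and 47 lower, and it became 0 with no filter on the mean (2268 at an unadjusted p under 0.05), 167 at a mean of at least 5 FPKM, 35 after quantile normalization (25 higher, 10 lower), 8 after median of ratios scaling (1 higher, 7 lower), 4 without a trend, 209 in a robust fit and 194 with the replicate block. It was 0 with each library left out, though 619 to 3195 genes then had an unadjusted limma p under 0.05. Same-numbered libraries deviated together at r = 0.25 across genes, but the numbers are not known to pair the pools. hop had an adjusted p of 0.110 with the block. Signs turned in 15 of 193 pairs of a gene and an alternative. After quantile normalization dome was at −0.21 and Socs36E at −0.12, and after median of ratios scaling dome was at −0.32, Stat92E at −0.12 and Socs36E at −0.34. With a library left out, upd3 ran from −1.10 to 0.65, dome from −0.11 to 0.30, et from −1.06 to 0.34, Socs36E from −0.16 to 0.32 and vir-1 from −2.90 to 1.04. The cause was not tested. Depth limits os, et and the low upd2 value, which rest on about 0 to 11 fragments.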

Other observations

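The cytokine genes upd2, upd3 and os lie in this order on chromosome X in the BDGP6 annotation. The nearest tested gene on the upd2 side, ari-1, had 19.0 and 20.5 FPKM in Piwi RNAi replicates 1 and 2, against 9.67 and 8.73 FPKM in mCherry RNAi replicates 1 and 2 (log2 difference 1.02; limma adjusted p = 0.129). On the os side, the nearest tested gene, CG6023, had 11.2 and 6.47 FPKM in Piwi RNAi, against 9.93 and 9.01 FPKM in mCherry RNAi (log2 difference −0.13; adjusted p = 0.791), so it too was lowest in Piwi RNAi replicate 2. The next, por, an acyltransferase gene of Wnt secretion, had 8.08 and 9.63 FPKM in Piwi RNAi, against 15.7 and 17.2 FPKM in mCherry RNAi (log2 difference −0.83; adjusted p = 0.150). None of these 3 passed the test, where 1.18% of all tested genes did, so that count says little. Both ari-1 values in Piwi RNAi were higher and both por values lower, beside 51.5% and 13.0% of all tested genes.

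Beside hop, dsh, which encodes the Wnt signalling protein Dishevelled, had 21.0 and 19.0 FPKM in Piwi RNAi, against 6.07 and 13.3 FPKM in mCherry RNAi (log2 difference 1.06; adjusted p = 0.181). On its other side Tim8 had 74.0 and 73.8 FPKM in Piwi RNAi, against 53.8 and 65.5 FPKM in mCherry RNAi (log2 difference 0.31; adjusted p = 0.319). Beside dome, the ubiquilin gene Ubqn had 85.6 and 79.0 FPKM in Piwi RNAi, against 31.5 and 40.5 FPKM in mCherry RNAi (log2 difference 1.18; adjusted p = 0.0980), while dome itself stood at 0.09. dsh, Tim8 and Ubqn are the nearest tested genes on those sides. All 3 were higher in both Piwi RNAi libraries, as were 51.5% of all tested genes, whose median log2 difference was 0.37. No gene of the 3 passed the test, where 1.18% of all tested genes did, so that count says little.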
